A study of Mus musculus with 9 samples.

Results

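Medial prefrontal cortex of stressed mice given an inhibitor of KDM5C (the group labelled SA:ANH-KDM5Ci, 3 libraries) was compared with the same tissue of non-stressed mice (NS, 3 libraries), across all genes that could be tested. These are 6 of the 9 libraries of the series, and 15144 of the 36172 features of the count table passed the filter on low counts. The other group of 3, stressed mice given no inhibitor (SA:ANH-vehicle), was used to place each changed gene: whether its level in that group had already moved toward SA:ANH-KDM5Ci or still lay at the level of NS.

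All mice were DBA2/J, an inbred strain. NS mice were not stressed and received saline by their treatment label and vehicle by the design text. Both SA:ANH groups went through 5 days of social defeat, in which a mouse is exposed repeatedly to an aggressor, and belonged to the subtype that the submitters call SA:ANH, with saline in one group and the KDM5C inhibitor in the other. Stress, subtype and inhibitor therefore all differ between SA:ANH-KDM5Ci and NS and cannot be told apart in that comparison. The meaning of SA:ANH, the age of the mice, and the name and dose of the inhibitor are not given in the sources used here. Whether each sample is its own mouse is not stated in the labels. The p-values therefore rest on the spread among these libraries, part of which may be technical.

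Each library held between 29845097 and 42196472 counts, with the ranges of the 3 groups overlapping. Excitatory neuron markers, which define cortex, were present in all libraries, with sums of 2993 to 3047 CPM (counts scaled to a common library size) in NS, 2854 to 2958 CPM in SA:ANH-vehicle and 2854 to 2913 CPM in SA:ANH-KDM5Ci.

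KDM5C removes methyl groups from lysine 4 of histone H3, a mark of active promoters and enhancers. Stress releases glucocorticoid hormones, which enter cells and activate the glucocorticoid receptor, and the receptor binds DNA as a pair of units at sites that face each other. Genes such as Sgk1, Fkbp5 and Tsc22d3 are classical targets of the receptor. Cholesterol in the brain is made locally, and the enzymes of its synthesis are switched on together by SREBP-2, a factor that is held inactive when sterol is plentiful and that binds sterol regulatory elements. Notch receptors act through RBPJ to induce Hes and Hey repressors. Together with Id factors and some Sox factors, these keep glia and stem cells from becoming neurons.

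Windows of 250 bases upstream of gene starts (RefSeq, GRCm38.p6) were searched on both strands for motifs of these factors, and 2 windows are shown. They come from the glucocorticoid response and sterol genes described below. Sgk1 and Hmgcs1 were the only changed genes of their groups in which the marked motif was found, so the windows are not typical of those groups. Sgk1 is a glucocorticoid target that stayed at NS level without the inhibitor. Its window, chr10:21993640-21993889 on the plus strand, lies before 1 of several RefSeq starts and inside the annotated gene, where it touches no GENCODE M21 exon. Capitals mark the single site AGAACA and its reverse complement with a spacer of 3 bases, which begins 189 bases before the start. Hmgcs1, an enzyme of cholesterol synthesis, lay near its SA:ANH-KDM5Ci level without the inhibitor. Its window, chr13:119690101-119690350 on the plus strand, lies outside GENCODE M21 genes. Capitals mark TCACCCCAC, a sterol regulatory element that begins 137 bases before the start.
Sgk1: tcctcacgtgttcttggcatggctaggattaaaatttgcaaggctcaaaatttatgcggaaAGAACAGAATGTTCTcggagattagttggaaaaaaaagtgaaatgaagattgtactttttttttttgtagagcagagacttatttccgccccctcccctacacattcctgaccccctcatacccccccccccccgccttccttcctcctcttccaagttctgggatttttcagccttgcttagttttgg
Hmgcs1: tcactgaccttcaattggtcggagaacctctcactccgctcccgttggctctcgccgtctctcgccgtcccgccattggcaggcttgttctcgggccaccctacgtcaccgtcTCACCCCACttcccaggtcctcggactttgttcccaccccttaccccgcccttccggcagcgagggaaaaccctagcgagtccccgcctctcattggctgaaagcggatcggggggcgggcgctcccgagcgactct
Among the 11912 tested genes with a window, the paired site was found in 1, Sgk1. The sterol regulatory element, whose search was added after values had been seen, was in 0.63% of these genes and in 1 of 10 sterol genes that fell and had a window. The single site AGAACA was in 13.3% of the genes, and in 4 of 18 glucocorticoid response genes that rose (22.2%). The cAMP response element TGACGTCA was in 2.93% of the genes, in 7 of 97 that were higher with SA:ANH-vehicle at NS level (7.22%) and in 2 of 243 that were lower (0.823%). Maff and Errfi1 were among the 7. The RBPJ site GTGGGAA was in 6.53% of the genes and in 3 of 6 Notch genes that changed, which were Hes5, Hey2 and Lfng. It was not particular to them, being also in 3 of 10 sterol genes that fell (30%). It was in 9.82% of all higher and 9.47% of all lower genes, and in 0 of 18 glucocorticoid response genes that rose. The E-box CACGTG and the D-box TTATGTAA were in 9.38% and 0.714%, and in 11.2% and 0 of the 224 higher genes. Among the changed glucocorticoid response, sterol and Notch genes, the E-box was in 5 of 18 (27.8%), 3 of 10 (30%) and 2 of 6 (33.3%). A match describes the letters in the window only.

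In SA:ANH-KDM5Ci, 281 genes were higher (1.86% of those tested) and 320 lower (2.11%) than in NS, or 601 in all (3.97%), by edgeR's quasi-likelihood test at a Benjamini-Hochberg adjusted p below 0.05. Most changes were small: 169 of the higher and 224 of the lower genes changed by less than 1.5-fold, and 54 and 33 by at least 2-fold. The median fold was 1.37 upward and 1.38 downward. The 3 libraries of each group did not overlap in any of the 601 genes, while 3555 of all genes tested (23.5%) had groups that did not overlap. Higher genes had a median level of 30.2 CPM and lower genes 16.5 CPM, beside 21.2 CPM over all genes tested.

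The count depended on single libraries. Higher genes numbered 149 without NS replicate 2, 133 without NS replicate 3 and 137 without SA:ANH-KDM5Ci replicate 1. Lower genes numbered 169, 136 and 142 in those fits and 169 without SA:ANH-KDM5Ci replicate 3. Of the 601 genes, 600 kept their direction when any 1 of the 9 libraries was left out, and 216 kept their call in all 9 of these fits. DESeq2 called 425 higher and 406 lower. Where no tool is named, a gene that passed or did not pass did so by edgeR.

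The largest increases were in genes of low level. Tmem252, which encodes a membrane protein, was at 0.424, 0.307 and 0.368 in NS, 0.937, 0.448 and 0.412 in SA:ANH-vehicle and 10.1, 4.75 and 5.83 CPM in SA:ANH-KDM5Ci (log2 fold change against NS 4.22, SE 0.38, adjusted p = 0.000128). Maff, a small Maf transcription factor (NCBI gene 17133, chromosome 15, 79346621 to 79359078, GRCm38), was at 0.848, 0.669 and 0.502 in NS, 0.937, 1.12 and 0.971 in SA:ANH-vehicle and 5.48, 4.65 and 6.07 CPM in SA:ANH-KDM5Ci (2.99, SE 0.19, adjusted p = 1.46e-06). In both genes every SA:ANH-KDM5Ci library lay above every other library. Fam83d, a protein of the mitotic spindle, rose by 2.92, and Fas, a death receptor, by 2.25. Mc4r, a melanocortin receptor, rose by 2.15, Cebpd, a C/EBP transcription factor, by 2.05, and Ada, adenosine deaminase, by 1.98, all on the log2 scale. Depp1 rose by 2.13, with 6.4, 3.13 and 2.04 CPM in the SA:ANH-KDM5Ci libraries, and its call was lost when any of 7 libraries was left out (highest adjusted p 0.132).

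The lowest p belonged to Zfp189, a zinc finger transcription factor (NCBI gene 230162, chromosome 4, 49521176 to 49531558). Its levels were 6.16, 6.36 and 7.63 in NS, 7.78, 7.73 and 7.62 in SA:ANH-vehicle and 25.7, 24.9 and 24.3 CPM in SA:ANH-KDM5Ci, a log2 fold change of 1.90 against NS (SE 0.08, adjusted p = 1.02e-07). The SA:ANH-KDM5Ci libraries stood apart from all others, which lay within 1 narrow range.

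Among the largest decreases were Hes5, a repressor induced by Notch (gene 15208, chromosome 4, 154960626 to 154962372), and Id3, which blocks basic helix-loop-helix factors. Hes5 was at 13.2, 12.5 and 15.4 in NS, 10.9, 14.1 and 14.2 in SA:ANH-vehicle and 5.94, 4.17 and 3.01 CPM in SA:ANH-KDM5Ci (-1.66, SE 0.20, adjusted p = 0.0014). Mycn, a Myc family factor, was at -1.30, Foxd1, a forkhead factor of meninges and pericytes, at -1.25, Tbx3, a T-box factor, at -1.23 and Hhex, a homeobox factor, at -1.20. The interferon-induced genes Gbp4 and Tnfsf10 were at -1.42 and -1.22. Ptgdr, a receptor of prostaglandin D2, was at -1.80 and lost its call without NS replicate 3, SA:ANH-KDM5Ci replicate 1 or SA:ANH-KDM5Ci replicate 3 (adjusted p up to 0.073). Gjb2, a connexin of meningeal cells, was at -1.43 and lost it without any of 5 libraries (up to 0.0693). Foxd1, Gjb2 and Ptgdr are also expressed in meninges, whose 20 markers were all below 0 in the same comparison (median -0.65). The part of that tissue in these decreases was not tested.

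**Figure D1:**
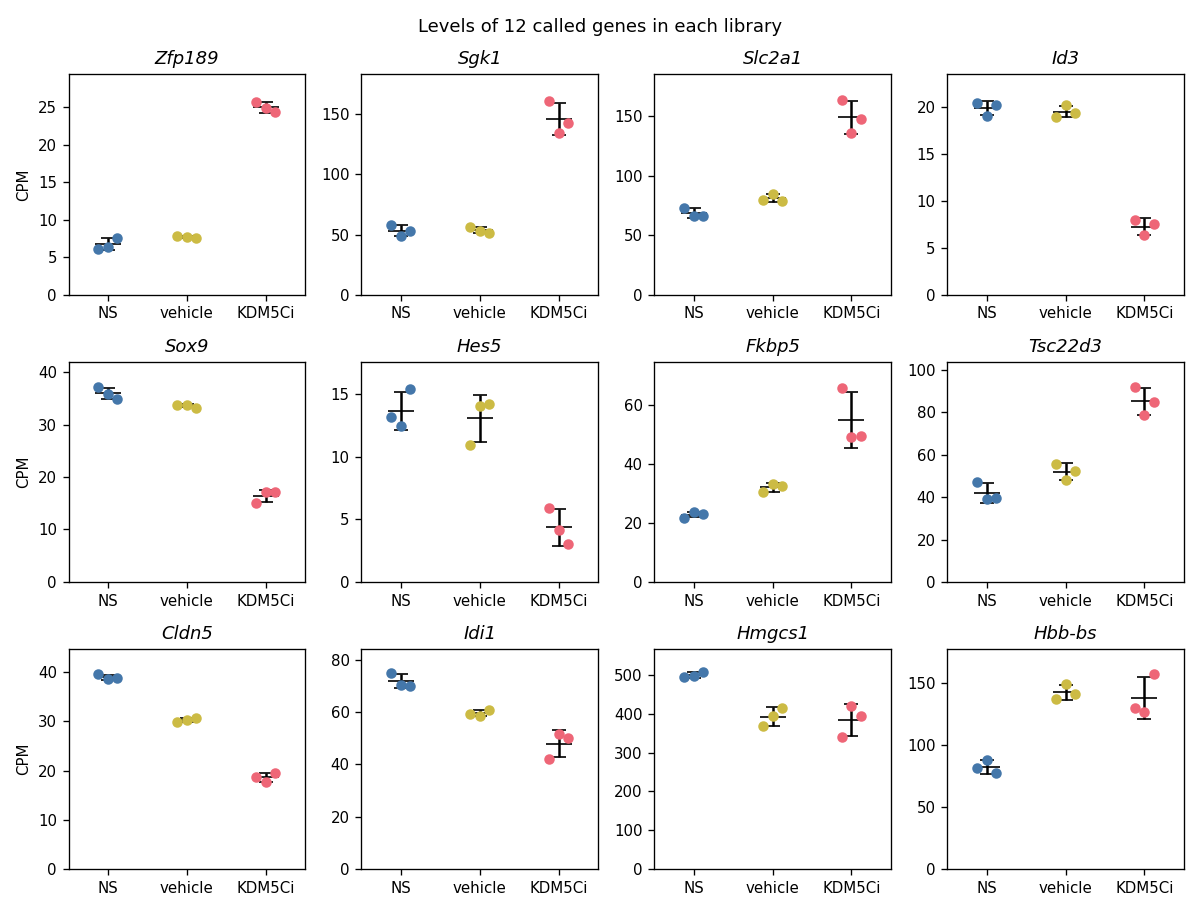
Level of 12 genes that passed the test, in CPM (vertical axes, each from 0), in each of the 3 NS, 3 SA:ANH-vehicle and 3 SA:ANH-KDM5Ci libraries (points), with the mean and SD of each group (black bars). In Zfp189, Sgk1, Id3, Sox9 and Hes5 the vehicle libraries sit beside NS, in Fkbp5, Cldn5 and Idi1 between the groups, and in Hmgcs1 and Hbb-bs beside SA:ANH-KDM5Ci.

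To separate graded genes from those that had not moved without the inhibitor, each gene was given a position, the log2 difference of SA:ANH-vehicle from NS divided by that of SA:ANH-KDM5Ci from NS. A position of 0 is the NS level and 1 the SA:ANH-KDM5Ci level. Of the 601 genes, 267 lay at NS level (position from -0.25 to 0.25), or 44.4%, and 248 between the groups (0.25 to 0.75), or 41.3%. In 61 genes SA:ANH-vehicle was at SA:ANH-KDM5Ci level (above 0.75), in 2 well beyond it and in 23 it was below NS, that is displaced the other way. The lower genes lay at NS level more often by count, 156 of 320, than the higher genes, 111 of 281, and between in 115 and 133. This difference between directions was not tested. The position uses the same NS and SA:ANH-KDM5Ci libraries that made the calls, so it is a description. A gene on the edge can fall either way: the position of 30 higher and 28 lower genes was within 0.05 of the 0.25 limit, and 379 of the 601 kept their class when each SA:ANH-vehicle library was left out in turn.

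Few genes can be placed firmly 1 at a time. All 3 SA:ANH-vehicle libraries lay strictly between the NS and the SA:ANH-KDM5Ci libraries in 99 of the 601 genes, 84 of them in the class between. In all 601 the NS and SA:ANH-KDM5Ci groups did not overlap, so the calls had already met part of this condition. The same count was not made over all genes tested. SA:ANH-vehicle was then tested against the midpoint of the other groups in the same edgeR fit, which passed for 57 of all genes tested (0.376%). Among the 601, SA:ANH-vehicle lay on the NS side of the midpoint in 33 genes, 19 higher and 14 lower, and on the SA:ANH-KDM5Ci side in 2, both beta-globins. For comparison, SA:ANH-vehicle against NS alone passed for 2 genes (0.0132%) and SA:ANH-KDM5Ci against SA:ANH-vehicle for 380 (2.51%). These comparisons share libraries with each other and with the main one.

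**Figure D2:**
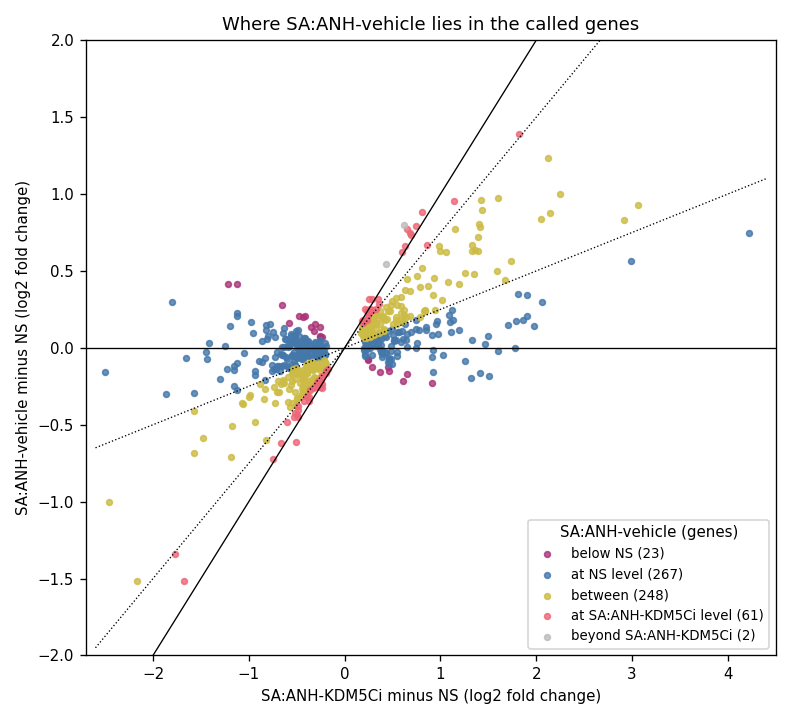
Log2 fold change against NS of the 601 genes that passed the test, in SA:ANH-KDM5Ci (horizontal axis) and in SA:ANH-vehicle (vertical axis); each point is a gene, coloured by its position class. The solid diagonal is equality, the dotted lines are positions of 0.25 and 0.75, and the 267 genes at NS level lie along the horizontal line while 61 lie near the diagonal. Both axes share the NS libraries.

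Among the 33 genes on the NS side, the higher ones were the kinases Sgk1 and Dyrk3, the transcription factors Zfp189, Maff, Mafk and Klf15, and the inhibitors Nfkbia, Ddit4 and Cdkn1a, which restrain NF-kB, mTORC1 and the cell cycle. Others were Pmaip1, a pro-apoptotic BCL2 family protein, Slc2a1, the glucose transporter of brain endothelium, Apold1, an endothelial early gene, the small GTPases Rhob and Rhou, Dio2, which activates thyroid hormone, Islr2, Ppp1r10, Polr3e and Dennd3. Lower ones were the transcription factors Sox9, Id3, Klf6 and Hic1, the RNA-binding proteins Zfp36l1, Zfp36l2 and Mex3b, the receptors Cckbr and Npy1r and the channel subunit Kcnv1. Tnfsf10, Tgtp2, Senp8 and Ing2 complete the 14. Slc2a1 (gene 20525, chromosome 4, 119108745 to 119137330) was at 73.1, 66.2 and 65.9 in NS, 79.2, 84.8 and 79.1 in SA:ANH-vehicle and 163, 136 and 148 CPM in SA:ANH-KDM5Ci. All 3 of its vehicle libraries lay above all NS libraries by a small step, at a position of 0.22, with an adjusted p of 0.046 against the midpoint.

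Mafk, the partner of Maff named after its values were seen, was at 8.42, 8.25 and 7.13 in NS, 7.55, 8.17 and 7.21 in SA:ANH-vehicle and 15.8, 15.6 and 13.5 CPM in SA:ANH-KDM5Ci (0.91, adjusted p = 0.000128). The RNA-binding proteins of the Zfp36 family, which destabilise mRNAs with AU-rich ends, went both ways. Zfp36l1 was at 26.8, 23.4 and 23.6 in NS, 24.2, 21.7 and 23.5 in SA:ANH-vehicle and 13.1, 13.9 and 12.8 CPM in SA:ANH-KDM5Ci (-0.89, adjusted p = 2.22e-05), and Zfp36l2 fell by 0.48. Zfp36 rose by 1.05, a call lost when any of 5 libraries was left out (highest adjusted p 0.17). Mex3b, another RNA-binding protein, was at 31.3, 29.3 and 28.2 CPM, 29.8, 28.5 and 28.9 CPM and 18.1, 18.6 and 17.8 CPM in the same order of groups (-0.71, adjusted p = 2.22e-05). Spns2, which exports sphingosine-1-phosphate from cells, rose by 0.74 (adjusted p = 3.18e-06) at a position of 0.24.

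Glucocorticoid response genes were the list with the most changed members. Of 31 genes tested, 20 rose and 0 fell (64.5% of the list, beside 3.97% of all genes), with a median log2 fold change of 0.68 against -0.00025 over all genes. This list, like the others, was written with earlier results of these data known, so its share is a description. In SA:ANH-vehicle the median of the list was 0.08. SA:ANH-vehicle was at NS level in 12 of the 20, between in 7 and below NS in 1, Cdkn1a, with a median position of 0.12. In the 9 fits that left out 1 library, 17 of the 20 kept their call each time. The other 3 were Mt1, Sult1a1 and Irs2, whose adjusted p reached 0.0757, 0.133 and 0.208.

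The members differed in how far they had moved without the inhibitor. Sgk1, a kinase that regulates ion channels (gene 20393, chromosome 10, 21882184 to 21999903), was at 57.6, 48.4 and 52.9 in NS, 56.6, 53 and 51.6 in SA:ANH-vehicle and 161, 134 and 143 CPM in SA:ANH-KDM5Ci (1.46, SE 0.08, adjusted p = 3.46e-07). The NS and vehicle libraries overlapped fully, a position of 0.01. Nfkbia (gene 18035, chromosome 12, 55489409 to 55492647) was at 16, 12.7 and 15.5 in NS, 17.5, 16.5 and 14.9 in SA:ANH-vehicle and 52.7, 41 and 50.5 CPM in SA:ANH-KDM5Ci, a position of 0.09 (1.71, adjusted p = 3.36e-06). Ddit4, Rhob, Klf15 and Map3k6, a stress kinase, had positions of -0.07, -0.07, 0.01 and 0.00, with log2 fold changes of 1.26, 0.43, 0.65 and 1.77 against NS. Rasd1, a Ras protein induced by dexamethasone, and Klf9, a Kruppel-like factor, were both at a position of 0.10.

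The graded members were Fkbp5, Tsc22d3, Cebpd, Bcl6, Hif3a, Sult1a1 and Mt1. Tsc22d3, Bcl6, Hif3a and Sult1a1 did not keep this class when each SA:ANH-vehicle library was left out in turn. Over the list, 14 of the 20 that rose kept their class. Fkbp5, a co-chaperone that restrains the receptor (gene 14229, chromosome 17, 28398753 to 28486149), was at 21.7, 23.6 and 23.1 in NS, 30.4, 33.1 and 32.5 in SA:ANH-vehicle and 65.6, 49 and 49.5 CPM in SA:ANH-KDM5Ci (1.26, SE 0.10, adjusted p = 2.25e-05). Its 3 groups did not overlap, and the position was 0.39. The step from NS to SA:ANH-vehicle did not pass the test on its own (0.49, adjusted p = 0.153), and the midpoint test did not place the gene on either side (adjusted p = 0.677). Tsc22d3, the glucocorticoid-induced leucine zipper (gene 14605, chromosome X, 140539528 to 140600522), was at 47.3, 39.3 and 39.5 in NS, 55.9, 48.1 and 52.2 in SA:ANH-vehicle and 91.8, 78.9 and 85 CPM in SA:ANH-KDM5Ci (1.02, adjusted p = 2.02e-05). All 3 vehicle libraries exceeded the highest NS library and stayed under the lowest SA:ANH-KDM5Ci library, at a position of 0.30.

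Of the 11 members that did not pass, Dusp1 was at 50.7, 18.7 and 14.6 CPM for NS and 28.4, 31.8 and 32.3 CPM in SA:ANH-KDM5Ci and Per1 at 94.7, 66.2 and 66.5 CPM and 109.5, 109 and 95.4 CPM. NS replicate 1 was the highest NS library in both, as it was for the activity-induced Fos at 45.7, 8.19 and 8.43 CPM in NS. Lcn2 had 1 high library, with 20.7, 0.743 and 0.523 CPM in SA:ANH-KDM5Ci (adjusted p = 0.285). The receptors themselves were at -0.22 (Nr3c1, glucocorticoid receptor, adjusted p = 0.0561) and 0.07 (Nr3c2, mineralocorticoid receptor, adjusted p = 0.576). Of the 9 genes on the list of receptors and hormone access, 1 passed, which was Fkbp5.

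Sterol and fatty acid synthesis showed the opposite direction and another position. Of 27 genes, 0 rose and 15 fell (55.6%, beside 3.97% of all genes tested), and 26 of 27 were below 0. The median log2 fold change was -0.37 in SA:ANH-KDM5Ci and -0.26 in SA:ANH-vehicle. None of the 15 lay at NS level: 11 were between and 4 at SA:ANH-KDM5Ci level, with positions from 0.46 to 0.92 and a median of 0.70. When each SA:ANH-vehicle library was left out in turn, 7 of the 15 kept their class. The midpoint test placed 0 of the 15 on either side. In SA:ANH-vehicle against NS alone, 0 of the 27 passed by edgeR or limma-voom and 7 by DESeq2, while 23 had an unadjusted edgeR p below 0.05, 22 of them lower. In the 9 fits that left out 1 library, 9 of the 15 kept their call each time, and 9 members passed without SA:ANH-KDM5Ci replicate 1.

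By step of the pathway, Hmgcs1 (gene 208715, chromosome 13, 119690351 to 119708260), which makes HMG-CoA, was at 493, 497 and 507 in NS, 368, 396 and 415 in SA:ANH-vehicle and 340.2, 421 and 394 CPM in SA:ANH-KDM5Ci (-0.37, SE 0.07, adjusted p = 0.00868, position 0.92). Every stressed library was below every NS library, and the 2 stressed groups overlapped. Idi1, the isomerase of the isoprenoid step (gene 319554, chromosome 13, 8885606 to 8892396), was at 74.9, 70.4 and 70.2 in NS, 59.4, 58.5 and 60.8 in SA:ANH-vehicle and 41.9, 51.5 and 50.2 CPM in SA:ANH-KDM5Ci (-0.58, SE 0.07, adjusted p = 0.000327, position 0.46). Its 3 groups did not overlap.

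Later enzymes fell by similar steps. Sqle, squalene epoxidase, was at 99.5, 91.9 and 95 in NS, 68.6, 75.8 and 80.7 in SA:ANH-vehicle and 62.8, 77.9 and 73.3 CPM in SA:ANH-KDM5Ci (-0.42, adjusted p = 0.00895). Nsdhl, an enzyme of the later sterol steps, was at -0.39 (adjusted p = 0.00338). Insig1, which retains the SREBP complex in the endoplasmic reticulum, fell by 0.50 (adjusted p = 0.0026), and its 3 NS libraries at 118, 107 and 98.6 CPM were above all stressed ones. Srebf2, which encodes SREBP-2, fell by 0.19, and its call was lost when any of 5 libraries was left out (highest adjusted p 0.0953). The fatty acid genes Fasn, Scd1, Scd2, Acaca, Acly and Elovl6 and the factor Srebf1 did not pass, with log2 fold changes of -0.18, -0.10, -0.05, -0.15, -0.10, -0.12 and 0.04. Myelin, which is rich in cholesterol, was represented by 19 oligodendrocyte markers of which 0 passed by edgeR, DESeq2 or limma-voom (2 at an unadjusted edgeR p below 0.05), with 19 above 0 and a median of 0.51. Myrf, a defining factor of these cells, is listed at 0 in all libraries. The part of these cells in the sterol result was not tested.

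**Figure D3:**
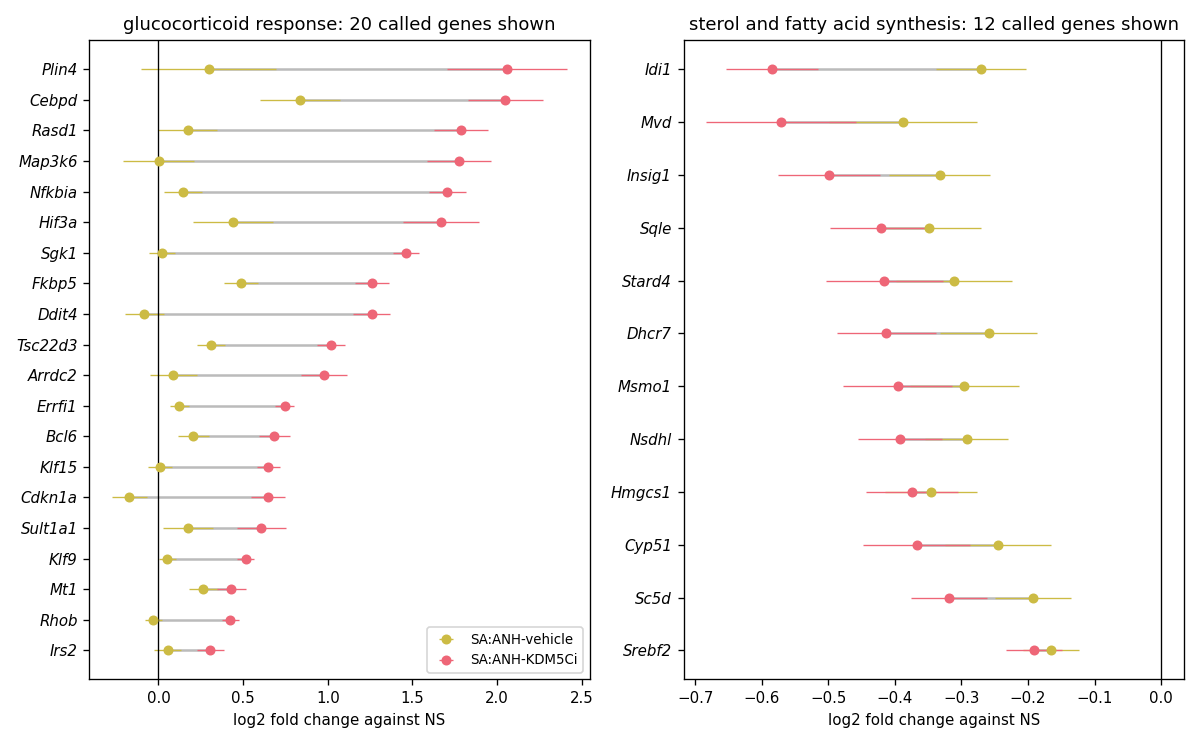
Log2 fold change against NS (horizontal axes, with SE bars from the edgeR fit) of the 20 glucocorticoid response genes that rose (left) and 12 of the 15 sterol and fatty acid genes that fell (right), in SA:ANH-vehicle (yellow) and SA:ANH-KDM5Ci (red). Yellow points lie near 0 for most glucocorticoid genes and near the red points for the sterol genes; the scales of the panels differ and both groups share the NS libraries.

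In another set SA:ANH-vehicle lay at the level of SA:ANH-KDM5Ci. Of 10 blood cell markers, 5 rose and 0 fell (50%, beside 3.97% of all genes tested). The 5 were haemoglobin and haem genes, which red blood cells carry. The median over the list was 0.69 in SA:ANH-KDM5Ci and 0.78 in SA:ANH-vehicle. Hbb-bs, a beta-globin, was at 81.4, 88.2 and 77.2 in NS, 138, 149 and 141 in SA:ANH-vehicle and 130.1, 127 and 158 CPM in SA:ANH-KDM5Ci (0.75, SE 0.08, adjusted p = 0.000149, position 1.06). The stressed groups overlapped and both stood above NS. Beta-globin copies are nearly identical, as are the alpha-globins Hba-a1 and Hba-a2, and DBA2/J carries another beta-globin haplotype than the reference strain, so the split between copies is uncertain. Hba-a1, Hba-a2 and Alas2, which starts haem synthesis in red cells, rose by 0.69, 0.69 and 0.65. Hba-a1 lost its call without either of 2 libraries and Alas2 without NS replicate 3 (adjusted p up to 0.0569 and 0.0541). Without NS replicate 3, 3 of the list passed. The part of blood left in the tissue was not tested.

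Chaperones of the endoplasmic reticulum stood in the same place. Of 26 heat shock and unfolded protein genes, 3 rose and 0 fell (11.5%, beside 3.97% of all genes tested). Of the 26, 23 were above 0 (median 0.14 in SA:ANH-KDM5Ci and 0.13 in SA:ANH-vehicle). No call was made without NS replicate 3, 1 without NS replicate 2, SA:ANH-KDM5Ci replicate 1 or SA:ANH-KDM5Ci replicate 3, and 5 without NS replicate 1 or SA:ANH-vehicle replicate 1. Hspa5, the main chaperone of that compartment, was at 298, 296 and 269.7 in NS, 329.8, 377 and 368 in SA:ANH-vehicle and 357, 346 and 396 CPM in SA:ANH-KDM5Ci (0.35, adjusted p = 0.00959, position 0.91). Its call was lost without NS replicate 3 (adjusted p = 0.0627). Hspb1, a small heat shock protein, and Hsp90b1 rose by 0.59 and 0.19 at positions of 1.05 and 0.83, calls lost when any of 4 and 6 libraries was left out (highest adjusted p 0.0985 and 0.109). The splicing factor Srsf10 rose by 0.29 (adjusted p = 0.00502) and was at 59.4, 62.4 and 62.6 in NS, 74.9, 76.2 and 78.4 in SA:ANH-vehicle and 77.7, 76 and 71.8 CPM in SA:ANH-KDM5Ci. Of the clock repressors, Nr1d2 rose by 0.26 at a position of 1.23, with its call lost without NS replicate 3 or SA:ANH-KDM5Ci replicate 1 (adjusted p up to 0.0512). Nr1d1 fell by 0.39 at a position of 0.42, and the other 21 clock genes tested did not pass by edgeR. DESeq2 called 8 of the 23, and 13 had an unadjusted edgeR p below 0.05, 11 of them higher. In SA:ANH-vehicle against NS, DESeq2 called 6 and edgeR 0, with 9 at an unadjusted edgeR p below 0.05.

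Lower genes at SA:ANH-KDM5Ci level, besides Hmgcs1 and Sqle, included Rasl11b, a Ras-like protein, Zdhhc8, a palmitoyl transferase, and Tril, an accessory protein of Toll-like receptors, with positions of 0.84, 0.81 and 0.85. Rasl11b was at 86.3, 81.4 and 87.5 in NS, 63.7, 67.1 and 61.9 in SA:ANH-vehicle and 52.7, 59.6 and 70 CPM in SA:ANH-KDM5Ci (-0.48, adjusted p = 0.00605). SA:ANH-KDM5Ci replicate 3 was above all vehicle libraries there. Adcyap1, the neuropeptide PACAP, and Jun, an AP-1 factor, fell by 0.50 and 0.39 at positions of 0.87 and 0.81, and each lost its call when any of 4 libraries was left out (highest adjusted p 0.116 and 0.129). The 2 genes beyond SA:ANH-KDM5Ci were Paqr5 and Zbtb40, named after their values were seen, which rose by 0.62 and 0.43 and lost their calls when any of 5 and 3 libraries was left out (highest adjusted p 0.153 and 0.126).

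The Notch genes that changed were mostly lower and mostly at NS level without the inhibitor. Of 26 tested, 2 rose and 7 fell (34.6%, beside 3.97% of all genes tested). SA:ANH-vehicle was at NS level in 7 of the 9, and 4 of the 9 kept their call in every fit that left out 1 library. Their positions are uncertain, since 3 of the 9 kept their class when each SA:ANH-vehicle library was left out in turn. The lower count was 3 without NS replicate 3 and 4 without NS replicate 2, SA:ANH-vehicle replicate 3, SA:ANH-KDM5Ci replicate 1 or SA:ANH-KDM5Ci replicate 3, and the higher count was 1 without NS replicate 3 or SA:ANH-KDM5Ci replicate 3. Besides Hes5, Hey2 and Heyl, repressors induced by Notch, fell by 0.72 and 0.93, and Nrarp, a feedback inhibitor, fell from 23.8, 23.1 and 23.8 CPM in NS to 14.2, 16.2 and 14 CPM in SA:ANH-KDM5Ci, with 19.8, 21.8 and 22.1 CPM in SA:ANH-vehicle (-0.67, adjusted p = 0.000162). Heyl lost its call without 1 library (adjusted p = 0.0548). Lfng, a glycosyltransferase that modifies the receptors, rose by 0.82 (adjusted p = 0.00084, position 0.29). Hes1, another Notch target, did not pass at 0.39 (adjusted p = 0.0804), and none of the receptors Notch1, Notch2, Notch3 and Notch4 passed.

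Sox9, an astrocyte factor (gene 20682, chromosome 11, 112782210 to 112787757), was at 37.1, 35.8 and 34.9 in NS, 33.8, 33.7 and 33.2 in SA:ANH-vehicle and 15.1, 17.1 and 17.1 CPM in SA:ANH-KDM5Ci (-1.13, SE 0.06, adjusted p = 3.91e-07, position 0.09). The remaining 18 astrocyte markers did not pass by edgeR, while DESeq2 called 3 of the 19 and 7 had an unadjusted edgeR p below 0.05. The summed level of that list ran from 6719 to 7181 CPM in NS and from 6475 to 7291 CPM in SA:ANH-KDM5Ci. As a family chosen after values had been seen, 8 of 16 Sox genes fell and 0 rose, beside 2.11% of all genes tested that fell. The 8 were Sox2, Sox4, Sox9, Sox12, Sox13, Sox17, Sox18 and Sox21, 5 of them at NS level in SA:ANH-vehicle. Sox4 lost its call without 1 library (adjusted p = 0.0532). Sox2 was at 44.4, 39.9 and 41 in NS, 41.3, 39.1 and 40.2 in SA:ANH-vehicle and 31.2, 26.6 and 27.9 CPM in SA:ANH-KDM5Ci (-0.55, adjusted p = 0.000394).

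Id3 was at 20.4, 19.1 and 20.3 in NS, 19, 20.2 and 19.4 in SA:ANH-vehicle and 8.01, 6.33 and 7.49 CPM in SA:ANH-KDM5Ci (-1.45, SE 0.08, adjusted p = 6.78e-07). Id1 fell by 0.73 (adjusted p = 0.00522), while Id2 and Id4 were at -0.15 and 0.15 and did not pass. Id genes are induced by BMP signals. The other 18 genes of the Id and BMP list did not pass by edgeR, among them the BMP target Smad6 at -0.05. DESeq2 called 3 of the 20, and 9 had an unadjusted edgeR p below 0.05, 8 of them lower. Olig2, a factor of the oligodendrocyte lineage that Id and Hes proteins oppose, rose from 22.5, 17 and 15.9 CPM in NS to 36.8, 27.9 and 35.4 CPM in SA:ANH-KDM5Ci, with 22.2, 19.6 and 19.1 CPM in SA:ANH-vehicle (0.85, adjusted p = 0.00653). SA:ANH-KDM5Ci lay above both other groups, which overlapped. The summed oligodendrocyte markers ran from 2054 to 3874 CPM in NS, from 2583 to 4010 CPM in SA:ANH-vehicle and from 3502 to 4510 CPM in SA:ANH-KDM5Ci, and their part in the level of Olig2 was not tested.

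Wnt genes went both ways. Of 39 tested, 2 rose and 4 fell (15.4%, beside 3.97% of all genes tested). Of the 6, 2 kept their call in every fit that left out 1 library, Wnt9a and Apcdd1. Wnt9a, a ligand, was at 38, 35.5 and 37.9 in NS, 32.8, 30.8 and 29.5 in SA:ANH-vehicle and 20.4, 24.4 and 22 CPM in SA:ANH-KDM5Ci (-0.74, adjusted p = 7.46e-05, position 0.35), so that no 2 groups overlapped. Apcdd1, a Wnt inhibitor, fell by 0.64 at a position of 0.32. The lower count was 2 without SA:ANH-KDM5Ci replicate 3, and the higher count was 0 without NS replicate 2 or SA:ANH-KDM5Ci replicate 1 and 1 without any of 5 other libraries. Axin2, a target and inhibitor of the pathway, and Lef1, its nuclear factor, fell by 0.31 and 0.63 and lost their calls when any of 5 and 3 libraries was left out (highest adjusted p 0.0838 and 0.139). The receptor Fzd4 rose by 1.09 and lost its call without NS replicate 2 or SA:ANH-KDM5Ci replicate 1 (adjusted p up to 0.0643). Dact2, a Dishevelled antagonist outside the list, fell by 0.55 (adjusted p = 7.7e-05) at a position of 0.39.

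Vessel genes split in direction. Of 21 endothelial markers, 1 rose and 5 fell (28.6%). Of 18 transporters of the blood-brain barrier, 1 rose and 4 fell (27.8%), beside 3.97% of all genes tested. Slc2a1 was the gene that rose in both. Cldn5, a claudin that seals the junctions of brain capillaries (gene 12741, chromosome 16, 18776847 to 18778262), was at 39.6, 38.6 and 38.7 in NS, 29.9, 30.2 and 30.7 in SA:ANH-vehicle and 18.7, 17.7 and 19.4 CPM in SA:ANH-KDM5Ci (-1.06, SE 0.06, adjusted p = 3.46e-07). It was graded with tight replicates, at a position of 0.34, and the step from NS to SA:ANH-vehicle fell short of the threshold (-0.36, adjusted p = 0.0579). Kdr, a VEGF receptor (gene 16542, chromosome 5, 75932827 to 75979072), was at 20.7, 20.3 and 19.6 in NS, 18.3, 14.4 and 17.2 in SA:ANH-vehicle and 9.91, 9.73 and 8.31 CPM in SA:ANH-KDM5Ci (-1.12, adjusted p = 2.37e-05), just inside the NS class at 0.25. Sox17 and Sox18, endothelial factors, fell by 0.63 and 0.83 and were at NS level in SA:ANH-vehicle.

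The lower count of the transporters was 1 without NS replicate 2 or NS replicate 3 and 2 without SA:ANH-KDM5Ci replicate 1 or SA:ANH-KDM5Ci replicate 2. Slc16a1, which carries lactate, was at 45.4, 40 and 45.8 in NS, 41.8, 35.2 and 37.8 in SA:ANH-vehicle and 29.3, 30.1 and 28 CPM in SA:ANH-KDM5Ci (-0.59, adjusted p = 0.000528, position 0.32). Slco1a4, an organic anion transporter, and Slc38a3, a glutamine transporter, fell by 0.32 and 0.23 and lost their calls when any of 6 and 5 libraries was left out (highest adjusted p 0.156 and 0.0994). Other endothelial markers such as Pecam1 and Cdh5 were at 0.01 and -0.14 and did not pass. The summed endothelial markers ran from 602 to 640 CPM in NS, from 629 to 694 CPM in SA:ANH-vehicle and from 597 to 713 CPM in SA:ANH-KDM5Ci, so the groups overlapped. Of 15 mural cell markers 2 fell (13.3%, beside 3.97% of all genes tested). Pdgfrb, the pericyte PDGF receptor, fell by 0.44 (adjusted p = 0.00776) and Tbx18 by 0.86. The call of Tbx18 was lost when any of 4 libraries was left out (highest adjusted p 0.0681).

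**Figure D4:**
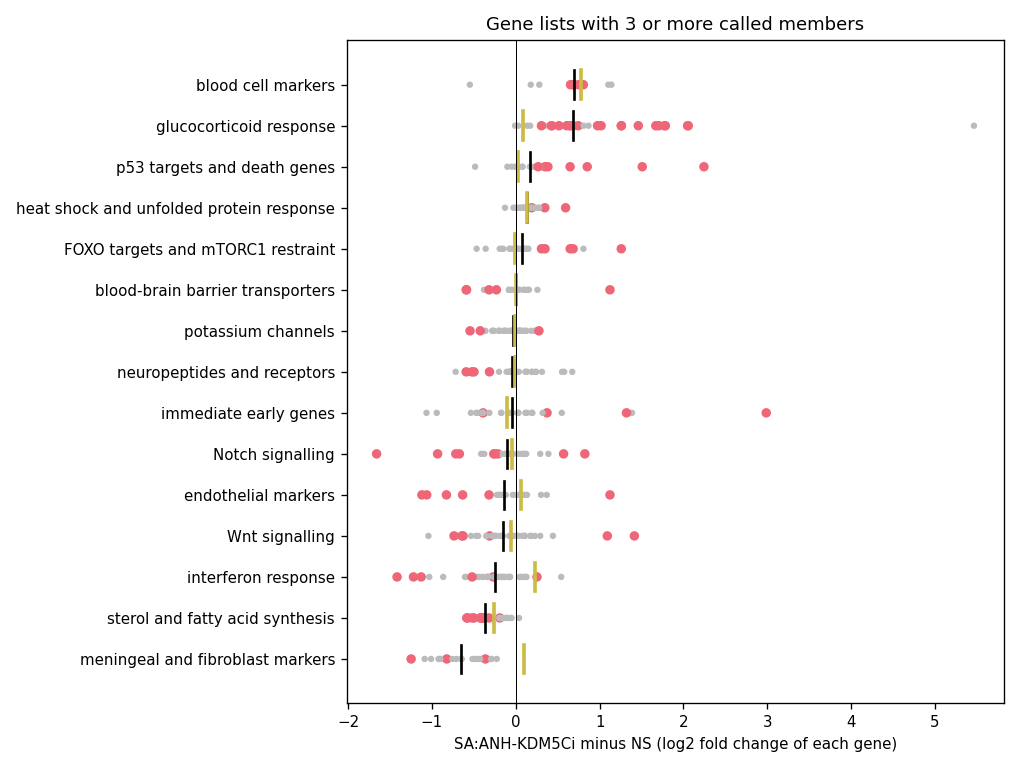
Log2 fold change of SA:ANH-KDM5Ci against NS (horizontal axis) of each tested member of the gene lists with 3 or more members that passed; large red points passed the test and small grey points did not. Black bars are list medians in SA:ANH-KDM5Ci and yellow bars in SA:ANH-vehicle, both against NS: they lie together for blood cell markers (0.69 and 0.78) and sterol synthesis (-0.37 and -0.26) and apart for glucocorticoid response (0.68 and 0.08).

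In tissue RNA, fewer cells of a type and less RNA per cell cannot be told apart. Meningeal and fibroblast markers were lower in SA:ANH-KDM5Ci as a set of values: 20 of 20 were below 0, with a median of -0.65. Of these, 3 passed (15%, beside 3.97% of all genes tested), Foxc1, Foxd1 and Igfbp2. The count was 9 without NS replicate 1 or SA:ANH-vehicle replicate 1, 1 without NS replicate 3 and 7 by DESeq2. Their summed level ran from 537 to 866 CPM in NS, from 689 to 952 CPM in SA:ANH-vehicle and from 444 to 583 CPM in SA:ANH-KDM5Ci. Foxc1 was at 6.11, 8.56 and 8.6 in NS, 10.1, 7.53 and 7.44 in SA:ANH-vehicle and 4.63, 4.14 and 4.36 CPM in SA:ANH-KDM5Ci (-0.82, adjusted p = 0.01), and lost its call without NS replicate 3 (0.0548). Igfbp2 lost it without any of 5 libraries (up to 0.113). Defining members such as Col1a1 and Dcn were present and at -0.71 and -0.65 without passing. These values moved with the decreases in Gjb2, Foxd1, Tbx18, Ptgdr, Zic1 and other genes of meninges, and their part in those decreases was not tested. Of 5 Zic genes, a family of meningeal and olfactory factors chosen after values were seen, 3 fell, beside 2.11% of all genes tested. Zic1 lost its call when any of 6 libraries was left out (highest adjusted p 0.142).

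Striatal neuron markers pointed the other way with no call. Of 17 tested, 0 passed by edgeR or limma-voom and 1 by DESeq2 (6 at an unadjusted edgeR p below 0.05, all higher). The median was 0.69 in SA:ANH-KDM5Ci and -0.07 in SA:ANH-vehicle, and the summed level was 1021, 564.7 and 744 CPM in the SA:ANH-KDM5Ci libraries against 505 to 647 CPM in NS. Pde10a was at 181, 84.7 and 129.5 CPM in SA:ANH-KDM5Ci and 77.7, 68 and 58.4 CPM in NS (adjusted p = 0.125). Drd2, the dopamine receptor of indirect-pathway neurons, was at 8.86, 2.49 and 4.61 CPM and 3.28, 1.06 and 1.3 CPM. Replicates 1 and 3 of SA:ANH-KDM5Ci were above all other libraries in the sum and replicate 2 was within the NS range. Syndig1l, another striatal marker, is listed at 0. The part of striatal tissue in other results was not tested. The 19 excitatory neuron markers had 0 calls by edgeR or limma-voom and 4 by DESeq2, with 8 at an unadjusted edgeR p below 0.05. 

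**Figure D5:**
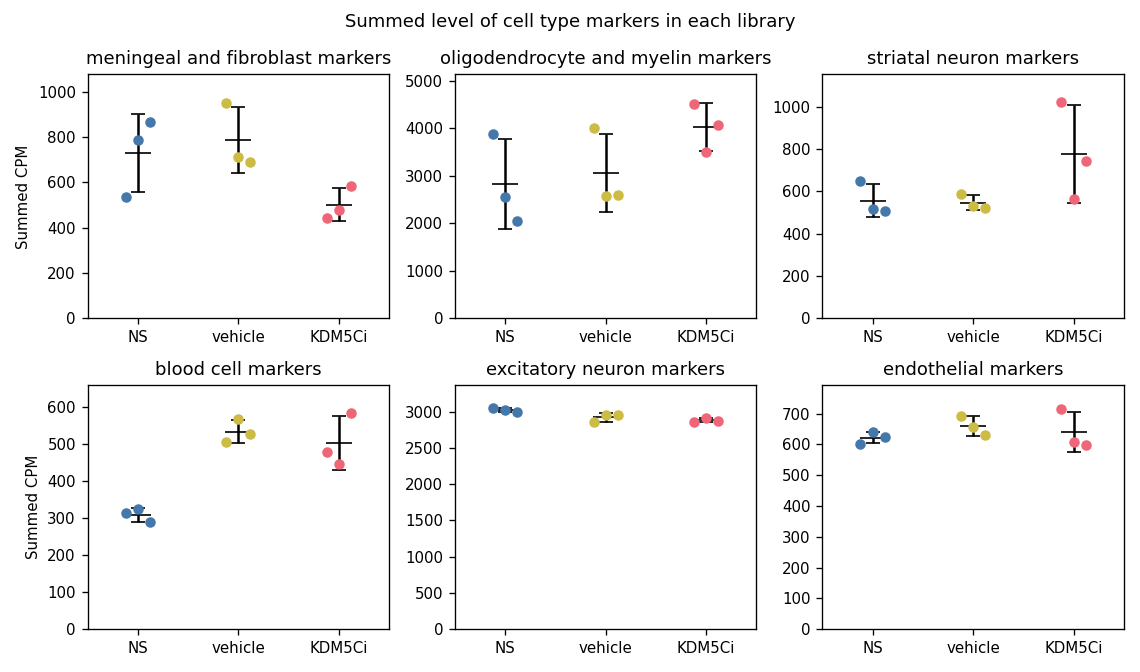
Summed CPM (vertical axes, each from 0) of 6 lists of cell type markers in each NS, SA:ANH-vehicle and SA:ANH-KDM5Ci library (points), with the mean and SD of each group (black bars). Meningeal markers are lowest in SA:ANH-KDM5Ci except for overlap with 1 NS library, blood markers are higher in both stressed groups, and excitatory and endothelial markers differ little between libraries.

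Interferon response genes had medians of opposite sign in the stressed groups. Of 39 tested, 1 rose and 5 fell in SA:ANH-KDM5Ci against NS (15.4%, beside 3.97% of all genes tested). The list's median was -0.24 there and 0.23 in SA:ANH-vehicle, where 0 passed by edgeR, DESeq2 or limma-voom and 16 had an unadjusted edgeR p below 0.05, all higher. The lower count was 2 without NS replicate 3 and 3 without NS replicate 2, SA:ANH-KDM5Ci replicate 1 or SA:ANH-KDM5Ci replicate 3. Tnfsf10, a death ligand, was at 3.22, 4.46 and 3.75 in NS, 6.47, 4.87 and 3.82 in SA:ANH-vehicle and 1.8, 1.75 and 1.39 CPM in SA:ANH-KDM5Ci (-1.22, SE 0.21, adjusted p = 0.00605), with SA:ANH-vehicle on the NS side of the midpoint and displaced upward. Gbp4, an interferon-induced GTPase, was at 2.4, 3.62 and 3.18 CPM, 3.47, 2.69 and 3.21 CPM and 1.51, 0.937 and 1.02 CPM in the same order (-1.42, adjusted p = 0.00222). Tgtp2 and Trim25 fell by 1.13 and 0.52 and lost their calls without any of 5 libraries and either of NS replicate 3 and SA:ANH-KDM5Ci replicate 3 (adjusted p up to 0.102 and 0.129). Tgtp2 has a nearly identical copy, Tgtp1, at -1.03, so its own level is uncertain. Isg15, Ifit1 and Irf7, core members of the response, were at -0.59, -0.12 and -0.08 and did not pass. Microglia, the resident immune cells, had 2 of 20 markers lower (10%), while 15 of the 20 were above 0. P2ry13 fell by 0.73 and Sall1 by 0.46 (adjusted p = 0.00139 and 0.00207), both at NS level in SA:ANH-vehicle.

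Of 22 p53 targets and death genes, 7 rose and 0 fell (31.8%, beside 3.97% of all genes tested). SA:ANH-vehicle was at NS level in 5 of the 7, and 6 kept their call in every fit that left out 1 library. Pmaip1 was at 2.74, 2.84 and 2.88 in NS, 2.55, 2.58 and 2.32 in SA:ANH-vehicle and 8.93, 6.88 and 8.27 CPM in SA:ANH-KDM5Ci (1.51, adjusted p = 1.85e-05). Fas was graded, with 0.763, 0.529 and 0.636 in NS, 1.24, 1.62 and 1 in SA:ANH-vehicle and 3.28, 2.65 and 3.24 CPM in SA:ANH-KDM5Ci (2.25, adjusted p = 7.46e-05, position 0.45). The list's members did not all act one way in cells: Bcl2l1, which rose by 0.38, protects from apoptosis. Classical p53 targets Mdm2, Bbc3 and Bax were at 0.18, -0.49 and 0.21 and did not pass. Trp53inp1 and Sesn1 rose by 0.85 and 0.35.

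Of 23 FOXO targets and restrainers of mTORC1, 5 rose and 0 fell (21.7%, beside 3.97% of all genes tested). All 5 are glucocorticoid response genes or p53 targets as well (Ddit4, Klf15, Bcl6, Sesn1 and Irs2). Ddit4, which inhibits mTORC1, was at 28.6, 25 and 24.7 in NS, 26.6, 22.8 and 24.5 in SA:ANH-vehicle and 74.9, 55.3 and 57.5 CPM in SA:ANH-KDM5Ci (1.26, adjusted p = 0.000102). NF-kB targets had 2 of 16 that rose (12.5%), Nfkbia and Nfkbiz. Nfkbiz was at 4.49, 4.04 and 2.88 in NS, 7.36, 5.26 and 5.09 in SA:ANH-vehicle and 8.79, 7.47 and 6.75 CPM in SA:ANH-KDM5Ci (1.00, adjusted p = 0.00831, position 0.63). The inflammatory members Il1b, Icam1 and Ptgs2 were at 0.22, 0.09 and 0.51 without passing. Feedback inhibitors of ERK had 2 of 14 that rose (14.3%), Errfi1 by 0.74 (adjusted p = 8.66e-06) and Dusp5 by 1.02. The call of Dusp5 was lost without NS replicate 2 or NS replicate 3 (adjusted p up to 0.0636).

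Among genes of neuronal signalling that passed were receptors that fell, transporters and channels that changed in either direction, and Homer1, which rose. The melanocortin receptor Mc4r, described above, rose by 2.15 (adjusted p = 0.00125) and is not on the neuropeptide list. Cckbr, the cholecystokinin receptor of cortex (gene 12426, chromosome 7, 105425676 to 105436339), was at 79.2, 77.6 and 81.2 in NS, 72.7, 80.1 and 86.5 in SA:ANH-vehicle and 52, 55.7 and 50.2 CPM in SA:ANH-KDM5Ci (-0.59, SE 0.06, adjusted p = 0.000161). Npy1r, a neuropeptide Y receptor, was at 32.5, 36 and 36 CPM, 39.1, 36.1 and 34.9 CPM and 26.1, 23.1 and 23.5 CPM in the same order (-0.52, adjusted p = 0.000907). In both genes SA:ANH-vehicle overlapped NS and lay on its side of the midpoint. Grm2, a presynaptic metabotropic glutamate receptor (gene 108068, chromosome 9, 106644534 to 106656109), was graded instead, at 101, 99.8 and 112 in NS, 80, 85.8 and 78.2 in SA:ANH-vehicle and 59.6, 72 and 57.6 CPM in SA:ANH-KDM5Ci (-0.73, adjusted p = 0.000189, position 0.49). No 2 of its groups overlapped.

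By list, 4 of 31 neuropeptide genes fell and 0 rose, and 1 of 25 monoamine genes fell, the beta-1 adrenoceptor Adrb1 by 0.58 (adjusted p = 0.0054). Sstr1, a somatostatin receptor, fell by 0.31 at a position of 0.41. Of 27 glutamate genes 1 fell and 1 rose, of 21 GABA genes 1 fell, and of 33 genes of synaptic vesicles and the postsynaptic density 1 rose, Homer1, at 185, 212 and 211 CPM for NS and 247, 257 and 283 CPM in SA:ANH-KDM5Ci (0.37, adjusted p = 0.0144). Its call was lost without SA:ANH-KDM5Ci replicate 3 (0.056), that of the glutamate transporter Slc1a1 without any of 7 libraries (up to 0.121) and that of the GABA transporter Slc6a11 without any of 8 (up to 0.156). Potassium channels had 2 of 34 that fell, Kcna4 by 0.55 and Kcnv1 by 0.42, and 1 that rose, Kcnn2 by 0.28, which was lost without NS replicate 2 or SA:ANH-KDM5Ci replicate 1 (up to 0.0693). Of 19 interneuron markers, Ndnf, of layer 1 cells, fell by 0.84 (adjusted p = 0.00227), and Lhx6 rose by 0.26, lost without any of 7 libraries (up to 0.194). Activity-induced genes gave 3 higher and 1 lower of 28, and Fos and Npas4 did not pass, at 14.3, 18.5 and 12.6 CPM and 7.15, 8.37 and 6.3 CPM in SA:ANH-KDM5Ci. The shares of members that passed were 14.3% (activity-induced), 12.9% (neuropeptide), 10.5% (interneuron) and 8.82% (potassium channel). They were 7.41% (glutamate), 4.76% (GABA), 4% (monoamine) and 3.03% (vesicles and postsynaptic density), beside 3.97% of all genes tested.

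The transcript of the inhibitor's target did not pass the test. Kdm5c was at 61.6, 61.7 and 63 in NS, 64, 66.6 and 60.7 in SA:ANH-vehicle and 59.4, 57.9 and 57.5 CPM in SA:ANH-KDM5Ci (-0.09, SE 0.05, adjusted p = 0.341). All 3 SA:ANH-KDM5Ci libraries were below all NS libraries by a small step. Groups that did not overlap were found in 23.5% of all genes tested. Kdm5a, Kdm5b and Kdm5d were at -0.04, -0.13 and -0.12 (adjusted p = 0.781, 0.338 and 0.636). An inhibitor acts on the enzyme, whose activity was not measured here. Of 17 other writers and erasers of H3K4 methylation 1 fell, the demethylase Kdm1b by 0.39, a call lost when any of 4 libraries was left out (highest adjusted p 0.0809). Germline genes, which are silenced in somatic cells, gave 0 calls by edgeR, DESeq2 or limma-voom among the 7 tested, with 1 at an unadjusted edgeR p below 0.05.

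Lists with no member that passed by edgeR included ATF4 targets (0 of 18), neurotrophin signalling (0 of 12), ribosomal proteins (0 of 40) and nuclear genes of oxidative phosphorylation (0 of 35). At an unadjusted edgeR p below 0.05 the counts were 6, 0, 25 and 3, limma-voom called 0 in each, and DESeq2 called 3, 0, 5 and 0. All ribosomal and oxidative phosphorylation genes were above 0, with medians of 0.15 and 0.08. Of the ribosomal genes, Rps3 came nearest to the threshold at 0.23 (adjusted p = 0.0507). In all, 115 of the 601 genes belong to at least 1 of the 42 lists, so most of the change lies outside them. Opn3, an opsin, is an example, graded at 10.8, 11 and 11.2 in NS, 8.3, 8.73 and 8.65 in SA:ANH-vehicle and 5.02, 5.33 and 5.28 CPM in SA:ANH-KDM5Ci (-1.07, adjusted p = 8.66e-06, position 0.34). Ctla2a, a protease inhibitor, is another, at 4.92, 6.13 and 5.12 CPM, 8.62, 8.65 and 9.41 CPM and 16.9, 11.4 and 14.1 CPM (1.39, adjusted p = 7.7e-05, position 0.52).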

How the data were processed

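Medial prefrontal cortex RNA of 9 samples was sequenced from strand-specific libraries. The deposited table holds expected counts per gene, which are not whole and were rounded here. Reads were trimmed with Trimmomatic 0.32 and aligned with TopHat2 2.0.13 and Bowtie2 2.2.3 against mm10, as listed in the submitters' processing notes. How reads were counted, and with which strand setting, is not given in the sources used here. Overlapping or antisense genes may therefore share counts. Of the 36172 features, 32947 had a RefSeq symbol (GRCm38.p6), and the 35 above 0 without one held 0.265% of counts. Library totals, 29845097 to 42196472 counts, leave genes of low level least precise.

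Genes that passed edgeR's filterByExpr were fitted in edgeR 4.0.16 (R 4.3.3) with TMM scaling, 1 mean per group over all 9 libraries, and robust quasi-likelihood tests of SA:ANH-KDM5Ci against NS, of SA:ANH-vehicle against NS, of SA:ANH-KDM5Ci against SA:ANH-vehicle and of SA:ANH-vehicle against the midpoint of the other groups. Positions use the fitted group means. Each was adjusted by Benjamini-Hochberg over all 15144 genes, and a gene was called at an adjusted p below 0.05. SE is the absolute log2 fold change over the root of F. The fits were tested on simulated data. CPM values use the TMM-scaled library size. Alternatives were DESeq2 1.42.0, limma-voom (limma 3.58.1), other scalings, filters and thresholds, a replicate block, the 6 compared libraries alone, other limits of position and leaving out each library.

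Genes named were, in each direction, the 10 called genes of largest change with groups that did not overlap and a higher group averaging 1 CPM or more, the 5 of lowest p in each of the main position classes, up to 4 called members of each list, and the Kdm5 genes. Other genes named, including list members that did not pass, all 33 on the NS side and the gene families, were chosen after their values were seen. The comparison, lists and rules were chosen with earlier results of these data known. Of the list entries, 27 were under the filter on low counts, 11 are listed at 0 and 6 were not matched. Results for some single genes are not reported here, while counts over lists include them.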

Additional observations from a re-analysis of the deposited data

How the results depend on the processing

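Direction was stable in genes that had passed and counts were not: of the genes named by the rules above, none that had passed reversed under any alternative run. A change of sign was not looked for in named genes that had not passed, or in those chosen after their values were seen. DESeq2 called 425 genes higher, 71 on the NS side of the midpoint and 8 on the SA:ANH-KDM5Ci side. Of the genes given above as not passing by edgeR, DESeq2 called Bbc3, Col1a1, Fasn, Hes1, Lcn2, Nr3c1, Pde10a, Ptgs2 and Rps3, and limma-voom called none of these. At an adjusted p of 0.01 the counts were 116 higher, 111 lower, 131 at NS level, 81 between, 6 on the NS side and 0 on the SA:ANH-KDM5Ci side, and at 0.10 they were 480 higher, 537 lower, 441 between, 69 on the NS side and 4 on the SA:ANH-KDM5Ci side. With narrower limits of position, 162 genes lay between. Leaving out each of the 9 libraries gave 133 to 343 genes higher, 136 to 404 lower, 136 to 284 at NS level, 93 to 320 between, 6 to 27 on the NS side and 0 to 4 on the SA:ANH-KDM5Ci side. Among the named genes, 114 of the leave-one-out results no longer passed, 24 newly passed and 1076 were on the same side. Limma-voom, both other scalings, both other filters and the fit of the 6 libraries alone left the counts of higher and lower genes within 1.5 times. The cause of these shifts was not tested.

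Replicate numbers were not taken to pair the samples, since in no 2 groups did every same-numbered pair correlate above 0.1 in its deviations from the group means. The correlations were -0.017, 0.102 and -0.144 between NS and SA:ANH-KDM5Ci, 0.056, 0.027 and -0.031 between NS and SA:ANH-vehicle, and 0.238, 0.084 and 0.184 between SA:ANH-vehicle and SA:ANH-KDM5Ci. The last were all positive, and 5 of the 6 differently numbered pairs of those groups were negative. Deviations from a group mean cancel out within the group, so the negative signs are not separate evidence. With the replicate block, 372 genes were higher, 336 lower and 20 on the NS side of the midpoint. Genes with few counts are limited by depth, and 3 libraries a group limit every result.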
